A study of Homo sapiens with 3 samples.

Results

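Expression of 9 genes of the DNA methylation machinery was compared between 2 RNA libraries of human melanoma cells. The genes are the methyltransferases DNMT1, DNMT3A and DNMT3B, the methylation maintenance factors UHRF1, UHRF2 and HELLS, and the dioxygenases TET1, TET2 and TET3. They were found by gene symbol among the 20344 genes of the deposited tables, and all 9 were listed. The set was chosen by function with earlier results of these libraries known, among them the low UHRF1 value of the A375-VR library, so every difference given here is a description and not a test. The series has 3 samples, of which 2 had values used here. These are titled A375, Prop (the A375 library) and A375-VR, Prop (the A375-VR library), with 1 library each, and a sample titled A375-VR with DMSO, whose cell line label is A375, is not analysed here. A375 is a melanoma line with mutant BRAF, and the series title concerns the BRAF inhibitor vemurafenib, the beta blocker propranolol and the cell cycle. The labels do not say how the VR cells were derived. In the extraction protocol, A375-VR cells were exposed to 20 µM propranolol or to DMSO (24 h), whereas the title and cell line label of the A375 library name A375. Cell line and treatment therefore cannot be told apart in any difference below, nor can either be told from culture or library preparation.

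DNA methylation places a methyl group on cytosine, mostly where a guanine follows it (CpG), and methylated promoters are usually silent. After replication each new strand lacks the mark. UHRF1 binds the hemimethylated CpG and ubiquitinates histone H3, which draws in DNMT1 to copy the mark, while HELLS remodels nucleosomes so that the methyltransferases reach the DNA. DNMT3A and DNMT3B write methylation on unmethylated sites. TET enzymes oxidise 5-methylcytosine in a reaction that uses alpha-ketoglutarate and iron, and the products are lost by base excision repair or by dilution at replication. Genes of maintenance methylation are known to be transcribed mostly around S phase, and some are targets of the E2F factors. The UHRF1 protein is commonly abundant in tumours, and TET levels and 5-hydroxymethylcytosine are known to be low in melanoma.

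The stretches of DNA before the start sites are shown for the 3 maintenance genes that were lower in the A375-VR library (UHRF1, HELLS and DNMT1) and for UHRF2, the paralog that was not. Each is the 250 bases before a RefSeq start on GRCh38.p14, read 5′ to 3′ on the gene's own strand, with matches to E2F forms in capitals. For UHRF1, which has 3 starts in the table, the first listed is given. It lies at chr19:4909251-4909500 on the plus strand. HELLS lies at chr10:94545538-94545787 (plus strand), DNMT1 at chr19:10194954-10195203 (minus strand) and UHRF2 at chr9:6412949-6413198 (plus strand).
UHRF1: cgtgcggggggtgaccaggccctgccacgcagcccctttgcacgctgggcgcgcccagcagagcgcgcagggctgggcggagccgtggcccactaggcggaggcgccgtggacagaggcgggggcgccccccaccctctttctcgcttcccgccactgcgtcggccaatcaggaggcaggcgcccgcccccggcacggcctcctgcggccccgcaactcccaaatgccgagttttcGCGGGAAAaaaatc
HELLS: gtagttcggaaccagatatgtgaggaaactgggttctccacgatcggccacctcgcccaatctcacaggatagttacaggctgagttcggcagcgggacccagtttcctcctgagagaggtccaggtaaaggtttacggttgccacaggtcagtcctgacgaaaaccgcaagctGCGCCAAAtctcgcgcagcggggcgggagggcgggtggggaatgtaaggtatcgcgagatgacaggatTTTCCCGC
DNMT1: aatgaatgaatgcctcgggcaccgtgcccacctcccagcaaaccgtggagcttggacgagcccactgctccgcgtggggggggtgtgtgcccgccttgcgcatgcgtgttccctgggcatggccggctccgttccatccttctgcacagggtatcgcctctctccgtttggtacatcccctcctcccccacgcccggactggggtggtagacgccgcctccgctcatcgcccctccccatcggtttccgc
UHRF2: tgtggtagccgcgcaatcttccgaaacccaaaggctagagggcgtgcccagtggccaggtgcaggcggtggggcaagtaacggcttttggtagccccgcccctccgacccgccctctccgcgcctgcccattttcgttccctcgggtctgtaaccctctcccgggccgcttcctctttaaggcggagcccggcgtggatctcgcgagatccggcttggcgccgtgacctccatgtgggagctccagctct

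Matches were sought on both strands for the E2F forms TTTCCCGC and TTTGGCGC, for CCAAT, for GGGCGG and for the CHR-like forms TTTGAA and TTCGAA. UHRF1 held TTTCCCGC on the opposite strand, 14 to 7 bases before its first start. HELLS held TTTCCCGC 8 to 1 bases before the start and TTTGGCGC, on the opposite strand, 76 to 69 bases before it. No match to either form lay in the windows of DNMT1, DNMT3A, DNMT3B, UHRF2 or the TET genes. Either form was held by 1.93% of all 35116 RefSeq windows and by 2 of the 20 windows of the 9 genes. The forms TTTCGCGC and TTTGCCGC were added after the sequences were seen, and TTTCGCGC lay 160 to 153 bases before the second start of UHRF1. With all 4 forms, 2.79% of all windows held a match, as did 3 of the 20 windows of the 9 genes and 10 of 33 windows of the replication genes. CCAAT, the box bound by NF-Y, lay in 7 of the 20 windows, those of UHRF1, HELLS, DNMT3B, TET1 and TET3, against 32.0% of all windows. GGGCGG lay in 12 of the 20 windows and in 42.6% of all windows, and a CHR-like form lay in 1 window of TET2 against 14.3%. The UHRF1 windows held 28, 32 and 41 CpG and that of HELLS 18, while the DNMT3B window held 3 and the median window 11. Other windows held 21 (DNMT1), 23 (UHRF2), 12 to 33 (DNMT3A), 4 to 11 (TET1), 10 and 34 (TET2), and 37 and 27 (TET3). A match says only that the letters are in the window.

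**Figure D1:**
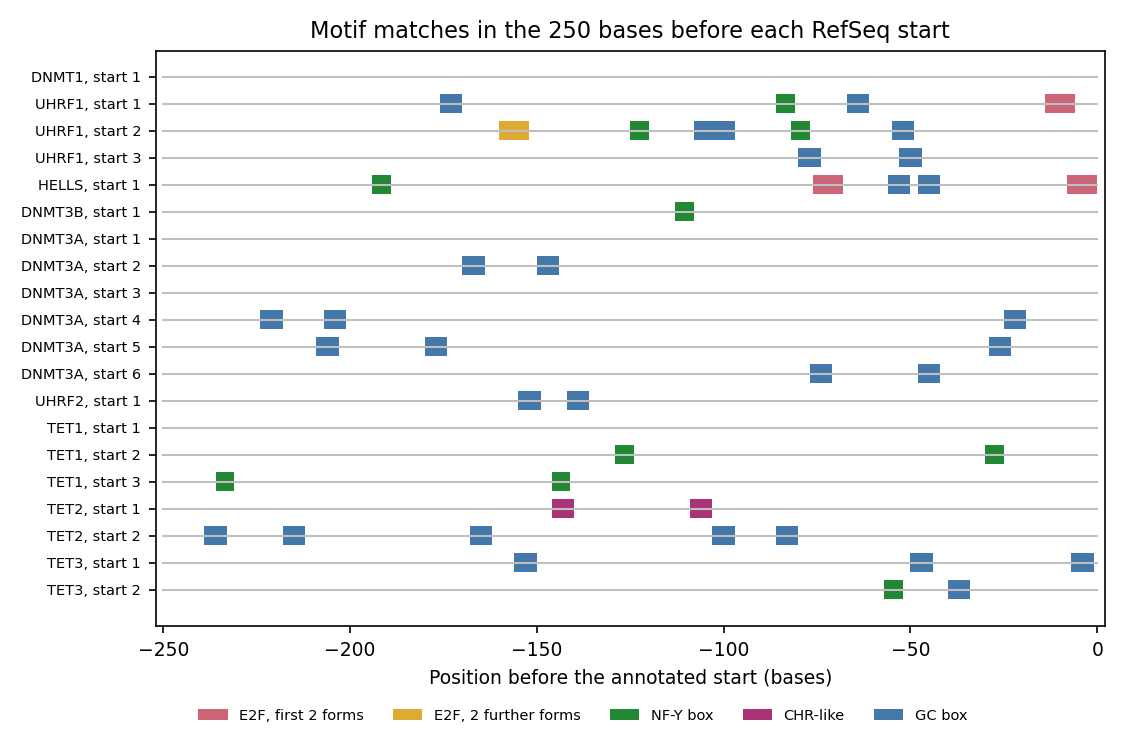
Matches to 5 groups of motifs in the 250 bases before each RefSeq start of the 9 genes, 1 line per start, with distance before the start in bases on the horizontal axis. The first 2 E2F forms lie in windows of UHRF1 and HELLS, 14 to 7 and 8 to 1 bases before the start, with another in HELLS at 76 to 69.

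Levels are FPKM as deposited, a count of fragments divided by gene length and library size. By these values DNMT1 and UHRF1 stood highest of the group in both libraries, though by how much depends on the gene length used (below). In the A375 library DNMT1 had 43.2 FPKM, UHRF1 41.3, HELLS 8.43, UHRF2 6.12, DNMT3B 2.67, TET3 2.04, TET2 1.32, TET1 0.423 and DNMT3A 0.234. In the A375-VR library DNMT1 had 28.5 FPKM, UHRF1 17.8, UHRF2 6.97, HELLS 4.10, TET3 1.91, TET2 1.77, DNMT3B 1.55, DNMT3A 0.511 and TET1 0.498. The order differed at 3 places. HELLS stood above UHRF2 in the A375 library and below it in the A375-VR library, DNMT3B stood above both TET3 and TET2 in the former and below them in the latter, and DNMT3A was last in the A375 library and above TET1 in the other.

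**Figure D2:**
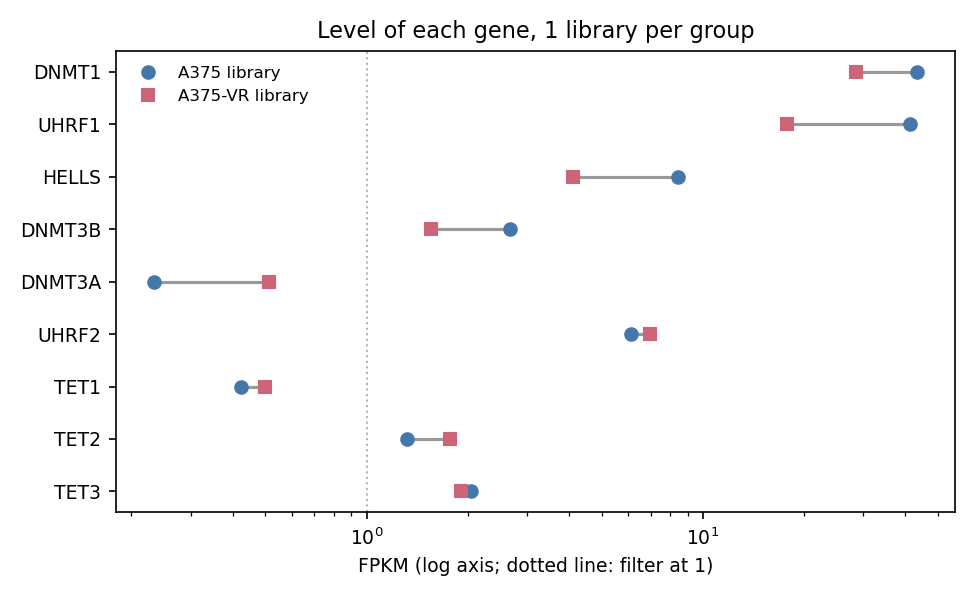
FPKM of each of the 9 genes (log axis) in the A375 library (circles) and the A375-VR library (squares), 1 library per group, with the filter at FPKM 1 dotted. DNMT1, UHRF1, HELLS and DNMT3B lie lower in the A375-VR library, and DNMT3A and TET1 lie left of the filter in both.

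Some neighbours in these orders were not resolved by counting. The intervals given here and for folds are 95% exact Clopper-Pearson intervals on reads recovered from the values, taken as the smallest whole numbers that give both. They cover counting error only and compare 2 libraries, not conditions. In the A375-VR library the ratio of TET3 to TET2 was 1.08 (0.943 to 1.24), that of TET2 to DNMT3B 1.14 (0.867 to 1.52) and that of DNMT3A to TET1 1.03 (0.701 to 1.53), none told from 1. In the A375 library DNMT1 stood 1.05-fold over UHRF1 (1.00 to 1.10). Levels between genes also rest on the gene length by which reads were divided. The recovered lengths of UHRF2 and TET2, 9919 and 16474 bp, equal the sum of all annotated exons and are longer than their longest transcripts, 3723 and 10166 bp. Per longest transcript, a setting added after the data were seen, UHRF1 over UHRF2 was 3.02 (A375) and 1.15 (A375-VR), in place of 6.74 and 2.56. TET3 over TET2 was then 0.971 and 0.679 in place of 1.55 and 1.08, so the order of these 2 genes depends on the length used. DNMT1 over UHRF1 was 1.80 and 2.75 in place of 1.05 and 1.60. DNMT3B in A375-VR was then at 2.46, below TET2 (2.86) and above TET3 (1.94), so its place against TET3 depends on the length too. For DNMT1 and DNMT3B the length taken was 3 times that recovered (4898 and 2315 bp), the multiple nearest the sum of annotated exons. Without that multiple DNMT1 would stand below UHRF1, and DNMT3B below TET3, per longest transcript in both libraries. HELLS was at 23.1 (A375) and 11.2 (A375-VR) per longest transcript, and UHRF2 at 16.3 and 18.6. For HELLS the length taken was 6 times that recovered (2537 bp). With the recovered length itself HELLS would stand below UHRF2 in both libraries, so their change of order depends on the length too. Length cancels in any fold of 1 gene between the libraries.

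UHRF1, HELLS and DNMT1 were lower in the A375-VR library, UHRF1 the most. UHRF1 (Entrez 29128, GRCh37 chr19:4903092-4962165, plus strand) stood at 41.3 FPKM (3783 reads) in the A375 library against 17.8 FPKM (1507 reads). In bulk RNA, fewer cells of a type and less RNA per cell cannot be told apart, here and below. Its fold, the plain FPKM ratio of A375-VR to A375, was 0.432 (0.406 to 0.458). On the log2(FPKM + 1) scale its difference was -1.17, the 32nd lowest of 10761 genes past the filter (FPKM of 1 or more in either library). HELLS (Entrez 3070, chr10:96305086-96373662, plus strand) had 8.43 and 4.10 FPKM from 381 and 171 reads, a fold of 0.486 (0.404 to 0.584). Its difference of -0.89 ranked 107 from the lowest. DNMT1 (Entrez 1786, chr19:10244018-10341962, minus strand) had 43.2 and 28.5 FPKM from 3769 and 2292 reads, a fold of 0.659 (0.625 to 0.694) and rank 453. The intervals of UHRF1 and DNMT1 did not overlap, so UHRF1 was lower by more than DNMT1: the ratio of UHRF1 to DNMT1 was 0.956 (0.913 to 1.000) in A375 and 0.626 (0.586 to 0.668) in A375-VR. In the annotation the span of DNMT1 overlaps S1PR2 on the same strand, and the sources used here do not give how reads there were counted.

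UHRF2, the paralog of UHRF1 with the same domains, did not share its difference. UHRF2 (Entrez 115426, chr9:6413151-6507054, plus strand) had 6.12 and 6.97 FPKM from 1082 and 1136 reads, a fold of 1.14 (1.05 to 1.24). The median fold of all genes was 1.08. After centring on that median ratio the fold of UHRF2 was 1.05 (0.966 to 1.14), not told from 1. UHRF1 made up 87.1% of the summed UHRF FPKM in A375 and 71.9% in A375-VR. The sum itself was 47.4 and 24.8 FPKM, a fold of 0.523.

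**Figure D3:**
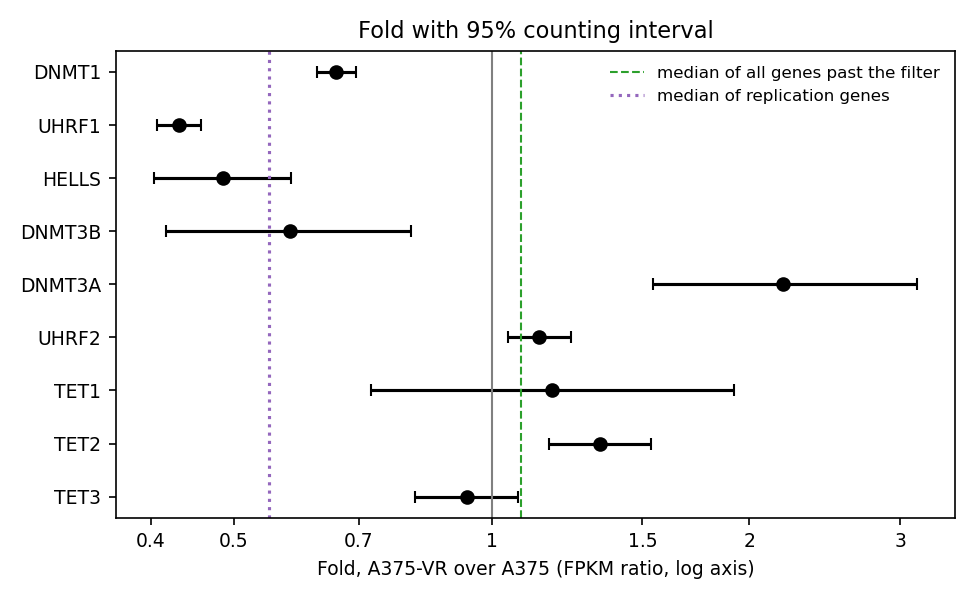
Fold of each gene (A375-VR over A375, FPKM ratio on a log axis; points) with its 95% counting interval (bars), beside the median of all genes past the filter (dashed, 1.08) and of the replication genes (dotted, 0.550). The bars of UHRF1, HELLS, DNMT1 and DNMT3B lie wholly below 1, those of DNMT3A, TET2 and UHRF2 wholly above, and those of TET1 and TET3 span it.

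The de novo enzymes went opposite ways from low levels. DNMT3B (Entrez 1789, chr20:31350191-31397165, plus strand) had 2.67 and 1.55 FPKM from 110 and 59 reads, a fold of 0.581 (0.416 to 0.804) and rank 619 from the lowest difference. DNMT3A (Entrez 1788, chr2:25450724-25565459, minus strand) had 0.234 and 0.511 FPKM from 50 and 101 reads, a fold of 2.19 (1.54 to 3.14). With both values under 1, DNMT3A did not pass the filter, and its difference with the pseudocount of 1 was 0.29. The ratio of DNMT3B to DNMT3A was 11.4 (8.11 to 16.3) in A375 and 3.03 (2.16 to 4.22) in A375-VR. DNMT1 still made up most of the summed DNMT FPKM, 93.7% and 93.2%, and the sum was 46.1 and 30.5 FPKM. The values are per gene, so isoforms of DNMT3A and DNMT3B, some of which lack catalytic activity in DNMT3B, were not separated.

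TET genes differed little between the libraries. TET2 (Entrez 54790, chr4:106067032-106200973, plus strand), the TET gene often mutated in blood cancers, had 1.32 and 1.77 FPKM from 387 and 478 reads. Its fold was 1.34 (1.17 to 1.53), and 1.24 (1.08 to 1.42) after centring. TET3 (Entrez 200424, chr2:74212037-74335303, plus strand), the form of the oocyte and zygote, had 2.04 and 1.91 FPKM from 446 and 385 reads. Its fold of 0.935 (0.814 to 1.07) was not told from 1, while after centring it was 0.864 (0.752 to 0.992). TET1 (Entrez 80312, chr10:70320094-70454244, plus strand), best known from embryonic stem cells, had 0.423 and 0.498 FPKM from 35 and 38 reads. Its fold was 1.18 (0.723 to 1.92), not detectably different from 1 at this depth, and it did not pass the filter. The summed TET FPKM was 3.78 and 4.17. TET3 made up 53.9% of it in A375 and 45.8% in A375-VR, and TET2 34.9% and 42.3%.

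Of the 9 genes, 7 passed the filter. On the log2(FPKM + 1) scale, 1 of these (UHRF1) was at least 2-fold lower in the A375-VR library, against 0.613% of all genes past the filter. At least 2-fold higher were 0, against 3.14%. A difference below 0 was seen in 5 of the 7, against 39.7% of all genes, and the median was -0.52, against 0.10 over all genes. The counting interval lay wholly below 1 for 4 of the 7, against 26.4% of all genes, and wholly above 1 for 2, against 43.6%. With 1 library per group nothing measures the spread between cultures. Because the genes were chosen with these differences known, nothing is read from the counts. By the plain FPKM ratio (0.486), and with a pseudocount of 0.1, HELLS was also at least 2-fold lower.

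**Figure D4:**
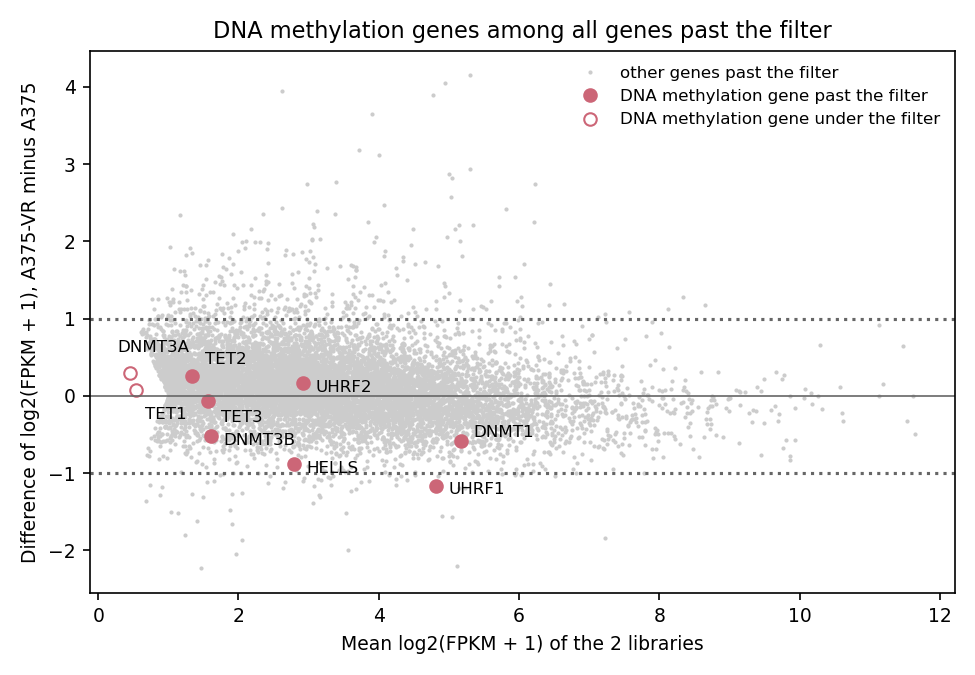
Difference of log2(FPKM + 1), A375-VR minus A375, against the mean log2(FPKM + 1) of both libraries, for all 10761 genes past the filter (grey) and the 9 DNA methylation genes (filled where past the filter, open for DNMT3A and TET1). UHRF1 lies below the dotted line at -1 and HELLS just above it, while UHRF2, TET2 and TET3 lie inside the main cloud.

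Replication and mitosis genes were lower in the A375-VR library, as were UHRF1, HELLS, DNMT1 and DNMT3B. The list of 31 replication genes passed the filter whole and lay wholly below 0, against 39.7% of all genes. Folds of these 31 had a median of 0.550, against 1.08 over all genes, and a range from 0.399 to 0.823. UHRF1, at 0.432, stood below all but 1 of them (PRIM1, a primase subunit, at 0.399), and HELLS had a fold above 4 of the 31. DNMT3B had a fold above 20 of them and DNMT1 above 26, so DNMT1 lay towards the least lowered end of that list. DNMT3A, UHRF2 and the TET genes had folds above all 31. Of the 15 mitosis genes all were below 0, with a median fold of 0.689 and CDC20, which activates the anaphase-promoting complex, at 0.515. The part of what lowered the replication genes in the values of these 4 genes was not tested.

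Partners of the methyltransferases included some of the same size of difference as UHRF1. Of 18 listed genes 16 passed the filter, and 14 of them lay below 0, against 39.7% of all genes. Their median was -0.15, against 0.10 over all genes, and 3 were lower by 2-fold or more, against 0.613%. PCLAF, a clamp-bound factor that helps bring DNMT1 to replicating DNA, had 40.8 and 17.6 FPKM, a fold of 0.431 (0.401 to 0.463). PCNA, the sliding clamp, had 308.9 and 153.9 FPKM, a fold of 0.498 (0.479 to 0.518). CDCA7, the zinc finger protein that works with HELLS, had 14.4 and 8.69 FPKM, a fold of 0.602 (0.542 to 0.668). Its paralog CDCA7L had 13.96 and 5.69 FPKM, a fold of 0.408 (0.361 to 0.459). PCLAF, CDCA7L and PCNA are thus the 3 that were 2-fold lower.

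Among listed readers of methylated CpG and related proteins, ZBTB38 had the largest difference. All 8 passed the filter, and 6 lay above 0, as did 6493 of all 10761 genes. Their median was 0.20, against 0.10 over all genes, and 1 was at least 2-fold higher, against 3.14% of all genes. ZBTB38, a zinc finger protein that binds methylated DNA, had 9.31 and 23.5 FPKM, a fold of 2.52 (2.40 to 2.64). Its relatives ZBTB4 and ZBTB33 (Kaiso) had folds of 1.83 (1.58 to 2.12) and 1.42 (1.25 to 1.61). MBD3, of the NuRD complex, was lower, with a fold of 0.821 (0.727 to 0.926).

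Among genes that act after the TET step, GADD45B had the largest difference. In the list of oxidised cytosine removal and base excision repair 11 of 13 passed the filter, 8 were below 0 (median -0.25) and 1 by 2-fold or more, against 39.7% and 0.613% of all genes. Of the housekeeping genes 10 of 13 were below 0, with a median of -0.19. The gene of the repair list lower by 2-fold or more was GADD45B, a stress gene linked to active demethylation. It had 10.1 and 4.30 FPKM, a fold of 0.426 (0.351 to 0.516). PARP1, which senses strand breaks, had a fold of 0.744, the abasic endonuclease APEX1 0.793 and GADD45A 0.821.

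Supply genes of the methylation and oxidation reactions split in direction. Among methyl donor genes 11 of 13 passed, 6 below 0 (39.7% of all genes) and 5 above, none 2-fold apart on the log2(FPKM + 1) scale. Their median was -0.073, against 0.10 over all genes. MTHFD1, SLC19A1 (a folate carrier) and SHMT2 had folds of 0.589, 0.609 and 0.717. Among TET cofactor genes 11 of 12 passed, 5 below 0 and 6 above, with a median of 0.10, equal to that of all genes. IDH1, the cytosolic enzyme that makes alpha-ketoglutarate, had 14.4 and 62.7 FPKM. Its fold was 4.36 (4.09 to 4.65), and it alone of its list was 2-fold apart, while 3.14% of all genes were at least 2-fold higher. Its mitochondrial counterpart IDH2 had a fold of 1.31 and OGDH, which consumes alpha-ketoglutarate, 1.44. FH, which removes fumarate, an inhibitor of TET enzymes, had 123.5 and 80.2 FPKM, a fold of 0.649 (0.598 to 0.704).

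**Figure D5:**
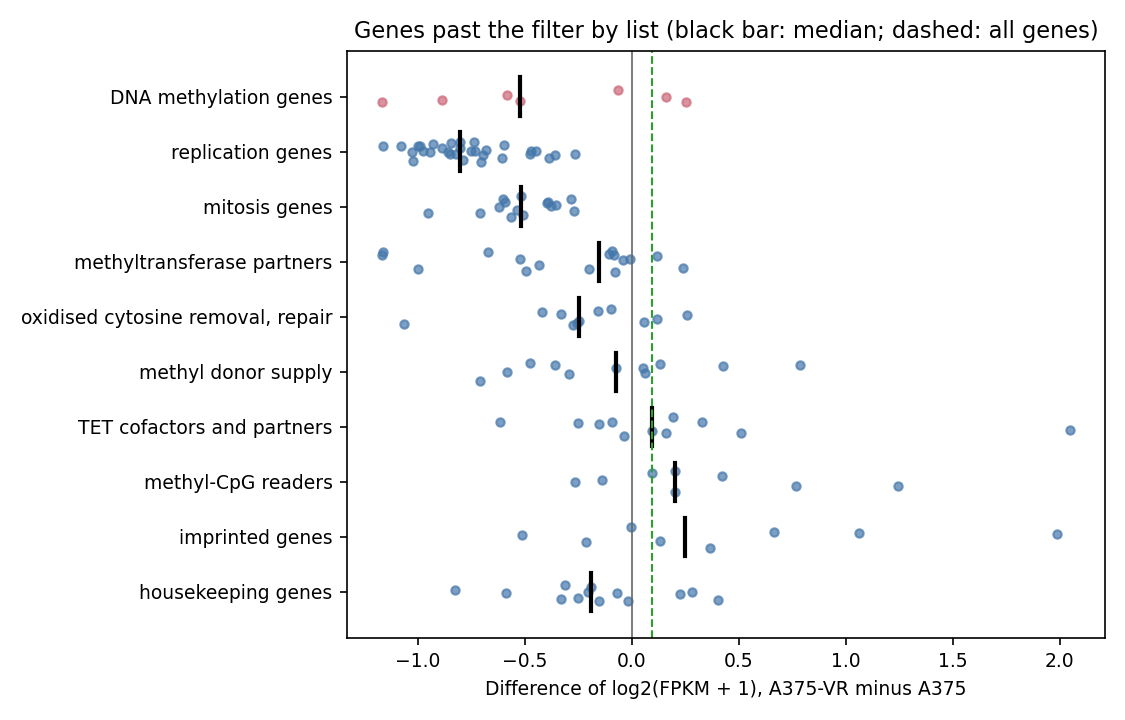
Difference of log2(FPKM + 1), A375-VR minus A375, of each gene past the filter (points), by list, with the list median as a black bar and the median of all genes (0.10) dashed. All replication and mitosis genes lie below 0, while the 7 DNA methylation genes range from -1.17 to 0.25.

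Genes closest to UHRF1, DNMT1 and HELLS in both levels were sought by distance on the log2(FPKM + 1) scale, which over 2 libraries says only that both values are alike. For UHRF1 these were PCLAF (40.8 and 17.6 FPKM), TEAD4 (40.2 and 19.1) and MCM2 (41.5 and 20.6). For DNMT1 they were RPA1, BCCIP and SMC4, with folds of 0.669, 0.653 and 0.638. For HELLS they were TRAIP, SEMA7A and RAD54L, with folds of 0.482, 0.459 and 0.474.

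The library totals recovered from the values, which rest on a common factor chosen by gene lengths, were 17811339 (A375) and 16438482 (A375-VR), with 7.87% and 8.11% of the FPKM sum from mitochondrially encoded genes. The 13 housekeeping genes had a median difference of -0.19, and 10 were below 0. Of 8 melanoma markers 4 passed the filter, and 3 of these were at least 2-fold higher, against 3.14% of all genes. They were SOX10 (65.3 and 149.6 FPKM), ERBB3 (10.1 and 36.0) and S100B (3.72 and 12.6). MITF was lower at 6.47 and 3.47 FPKM (fold 0.537, 0.476 to 0.605). TYR was at 0 in both libraries and MLANA rested on 0 and 3 reads. As for other cell types, 0 of 8 leukocyte, 1 of 6 endothelial, 2 of 7 fibroblast and 3 of 8 keratinocyte markers passed. PTPRC, CD3E, TP63 and DSG3 were at 0 in both libraries. The summed FPKM of these 4 marker lists was 0.540, 0.755, 4.88 and 48.7 in the A375 library and 2.14, 2.17, 7.02 and 62.2 in the other, most of the last from KRT10. Their part in the results was not tested.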

How the data were processed

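Per the series design text, stranded TruSeq mRNA libraries were read as 150 bp pairs on a HiSeq 2000, and reads were aligned to GRCh37 with TopHat 1.3.3. The FPKM values were deposited by the authors as 1 value per gene and library. For the counting tool, annotation and use of strand, the entry is "not given in the sources used here". With 1 library per group no test was possible.

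Groups follow the sample titles. From the FPKM, log2(FPKM + 1) differences (A375-VR minus A375) were taken, and 2-fold was called over genes with FPKM of at least 1 in a library. The ratio of library totals came from 274 genes with equal reads in both. The common factor, 3 of 12 tried, was that under which most of 3000 gene lengths (15.3%, next 10.8%) equalled exon lengths of GENCODE release 44. Reads are the smallest whole numbers that give both values (whole lengths within 1e-06 bp), found for 15404 of 15404 genes above 0. True counts can be multiples, so intervals can be too wide.

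Gene lists and members were chosen with earlier results of these data known. Named are the 9 members, up to 4 genes per list with the largest difference, and the 3 genes nearest UHRF1, DNMT1 and HELLS. PIWIL2, MLANA and the markers at 0 were picked after their values were seen. Some genes that these rules name are not reported here. Alternatives were 3 scalings, pseudocounts of 0.1 and 0.5, a filter at FPKM 5 and no filter. Steps tested on simulated data were the ratio of library totals, reads up to a multiple, intervals on the true simulated reads and 2-fold calls. The choice of the common factor and intervals on the smallest whole reads were not tested in this way. Python 3.11.15, numpy 2.4.6, scipy 1.17.1 and pandas 2.3.3 were used.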

Additional observations from a re-analysis of the deposited data

How the results depend on the processing

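DNMT1, DNMT3B, UHRF1 and HELLS had a difference below 0 and UHRF2, TET2, TET1 and DNMT3A above 0 under all 3 scalings. The other alternatives, 2 pseudocounts and 2 filters, cannot change the sign of a gene's difference. The cause of the shifts below was not tested, apart from what the settings themselves fix. These are fewer or added genes under other filters, and a pseudocount of less weight after rescaling to a common sum or at 0.1. With the filter at FPKM 5, 4 of the 9 genes remained, 3 of them below 0, with a median difference of -0.74. Without a filter the median of all 9 genes was -0.064. With a pseudocount of 0.1, 2 of the 9 genes were at least 2-fold lower. Over all genes, 104 were at least 2-fold lower after rescaling to a common sum, 101 after centring on the median ratio, 101 with the trimmed mean of log ratios and 140 with a pseudocount of 0.1, in place of 66. At least 2-fold higher were 624 after rescaling and 689 with a pseudocount of 0.1, in place of 338. The common sum was 1e6, in place of FPKM sums of 265149 (A375) and 260897 (A375-VR), with the pseudocount kept at 1. That rescaling changed plain folds by a factor of only 1.02. After centring and with the trimmed mean, the counting interval of UHRF2 took in 1 (0.965 to 1.14 with the latter) and that of TET3 no longer did (0.751 to 0.991). The median difference over all genes was 0.10, and -0.00189 with the trimmed mean. Reads at the multiple nearest the reference length, a setting added after the data were seen, changed no gene's side of 1. Depth limits TET1 (35 and 38 reads), DNMT3A (50 and 101) and DNMT3B (110 and 59). No paired analysis was possible because each group has 1 library.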

Other observations

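Genes under known control by DNA methylation were also read, as a description beside the methylation machinery. Imprinted genes, which are expressed from 1 parental allele, went in both directions. Of 18 fixed, 15 were listed in the files and 8 passed the filter. Of these, 5 lay above 0, as did 6493 of all 10761 genes, and 3 below. At least 2-fold higher were 2, against 3.14% of all genes. Their median difference was 0.25, against 0.10 over all genes, and 0.86, against 0.052, with the filter at FPKM 5. CDKN1C, the maternally expressed inhibitor p57, had 6.68 and 29.5 FPKM in the A375 and A375-VR libraries, a fold of 4.41 (3.88 to 5.03). Its neighbour in the same imprinted domain, PHLDA2, had 102.9 and 215.9 FPKM, a fold of 2.10 (1.84 to 2.39). IGF2R had a fold of 1.68 (1.59 to 1.77), while PLAGL1 had 1.20 and 0.536 FPKM, a fold of 0.449 (0.339 to 0.588). Allelic expression was not measured.

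Germline genes that somatic cells hold silent by promoter methylation stayed near 0 in both libraries. Of 14 fixed, 0 passed the filter and 8 were at 0 in both. Over all 20344 genes, 10761 passed the filter and 4940 were at 0 in both. The summed FPKM of the 14 was 0.0947 (A375) and 0.452 (A375-VR). PIWIL2, which binds small RNAs of the germline and is named after its values were seen, made up most of the second sum, at 0.0195 and 0.254 FPKM from 2 and 24 reads. DNA methylation itself was not measured in this series.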
